A study of Mus musculus with 24 samples.

Results

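The transcripts described here are those of the 4 adult hemoglobin genes, Hba-a1 and Hba-a2 for the alpha chain and Hbb-bs and Hbb-bt for the beta chain, and of Alas2, the enzyme that starts heme synthesis in red cells. They were the 5 rows of the deposited expression table that carry these symbols, of 28450 rows in all, and were picked because they were lower under glyoxylate in both genotypes. Kidney RNA was sequenced from C57BL/6 mice of 2 genotypes, Nlrp3 knockout (NLPR3-/- in the labels) and wild type. Mice of each genotype received glyoxylate (Gly, "glyoxylate acid" in the labels) or saline, and the 4 groups were knockout Gly, knockout saline, wild-type Gly and wild-type saline, with 6 libraries each. Injections were intraperitoneal, daily from day 1 to day 7, in a volume of 200 µl, and Gly was dosed at 75 mg/kg per day. Kidneys were collected after the last day. The series names the condition calcium oxalate nephrocalcinosis, and glyoxylate is turned into oxalate in the body. The labels used here state neither the knockout allele nor the age or sex of the animals.

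Values are FPKM, read fragments scaled to transcript length and to mapped fragments, so levels of different genes are given per length. The depth is unknown, and FPKM summed to between 439749 and 539018 per library. Kidney markers were present in all libraries, with Umod at 1344 FPKM or more in every library. Nlrp3 lay between 0.119 and 0.144 FPKM in knockout Gly libraries, against 0.361 to 0.896 FPKM in wild-type Gly libraries. Under saline it lay between 0 and 0.182 FPKM in knockout libraries and between 0.0397 and 0.0886 FPKM in wild-type libraries, so it does not check the saline labels. In 5 of the 6 knockout saline libraries (1, 2, 3, 5 and 6) 4 Y-linked genes (Ddx3y, Uty, Kdm5d and Eif2s3y) stayed at or below 0.0503 FPKM, while Ddx3y was at 5.14 FPKM or more in the other 19 libraries. Each called difference named below that rests on these 5 libraries is also given against knockout saline library 4 alone, except where the gene was tested with no filter on low values. That fit leaves 1 library in the group, so a call can be lost there through the smaller number of libraries alone. A lost call therefore does not show that a difference depends on the 5 libraries, and the sizes of the differences are to be compared. Correlations within knockout saline have no such check. Whether each library is its own animal is not stated beyond its sample name, so the p-values below speak of the spread among these samples.

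Hemoglobin is a tetramer of alpha and beta chains, each holding a heme group. Its messenger RNA is made in developing red cells of the bone marrow and spleen. Young red cells, the reticulocytes, carry it into the circulation for a short time after losing their nucleus. Alas2 makes 5-aminolevulinate, the committed precursor of heme, in these cells, while Alas1 does so in other tissues. Blood left in a dissected organ can carry these transcripts. The kidney is also the main adult source of erythropoietin, the hormone that drives red cell production. In bulk tissue, fewer cells of a type and less RNA per cell cannot be told apart.

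The 250 bases before the start of the genes show how much the copies share upstream and which motifs they hold. They come from RefSeq in build GRCm38.p6 and are shown 5′ to 3′ on the strand of each gene, in lower case. Capitals mark matches on either strand to 5 motifs known from red-cell promoters. The GATA factors bind AGATAA or TGATAA. The motif CCACCC is bound by KLF factors such as Klf1. A further box of many promoters is CCAAT. The TATA box was searched as ATATAA.
Hba-a1: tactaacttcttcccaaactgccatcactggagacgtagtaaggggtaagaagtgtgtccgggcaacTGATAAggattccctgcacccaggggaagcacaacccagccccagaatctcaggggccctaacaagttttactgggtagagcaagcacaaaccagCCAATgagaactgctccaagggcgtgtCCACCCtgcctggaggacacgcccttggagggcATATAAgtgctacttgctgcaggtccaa
Hbb-bs: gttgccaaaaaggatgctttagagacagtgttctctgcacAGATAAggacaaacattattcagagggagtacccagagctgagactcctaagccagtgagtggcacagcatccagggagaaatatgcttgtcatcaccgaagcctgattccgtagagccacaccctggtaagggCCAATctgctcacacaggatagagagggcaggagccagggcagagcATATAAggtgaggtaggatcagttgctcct
Hbb-bt: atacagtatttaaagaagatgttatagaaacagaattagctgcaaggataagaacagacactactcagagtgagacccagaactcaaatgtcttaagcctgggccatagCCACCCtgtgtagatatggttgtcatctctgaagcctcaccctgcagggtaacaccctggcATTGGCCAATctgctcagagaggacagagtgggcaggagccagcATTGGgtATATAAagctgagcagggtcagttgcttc
Alas2: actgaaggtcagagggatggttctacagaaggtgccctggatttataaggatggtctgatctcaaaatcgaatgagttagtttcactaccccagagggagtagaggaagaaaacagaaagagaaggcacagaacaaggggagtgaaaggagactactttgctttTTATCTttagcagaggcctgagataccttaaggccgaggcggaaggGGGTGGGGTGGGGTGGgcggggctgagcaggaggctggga
The windows lie at chr11:32283422-32283671 on the plus strand for Hba-a1, chr7:103827929-103828178 on the minus strand for Hbb-bs, chr7:103813924-103814173 on the minus strand for Hbb-bt and chrX:150547167-150547416 on the plus strand for Alas2. The window of Hba-a2, at chr11:32296242-32296491 on the plus strand, was identical to that of Hba-a1 over all 247 aligned bases and is not printed. The 2 beta windows matched at 175 of 243 aligned bases, or 72.0%.

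In the printed orientation, Hba-a1 held TGATAA with the first base of the motif at -183, CCAAT at -88, CCACCC at -61 and ATATAA at -28, counted from the start site. Hbb-bs held AGATAA at -210, CCAAT at -76 and ATATAA at -30. It had no exact CCACCC, but the similar letters ccacaccc, which were not among the motifs searched, stand upstream of its CCAAT. Hbb-bt held CCACCC at -141, ATATAA at -29, CCAAT at -75 and, on the opposite strand, CCAAT at -80 and -36, the first of which adjoins the forward match. Alas2 held AGATAA on the opposite strand at -86 and CCACCC on the opposite strand at -40, -35 and -30, which overlap each other. One or the other GATA box was present in 4 of the 5 windows, against 17% of 27025 RefSeq mouse promoter windows of the same length. That count includes the matching windows of Hba-a1 and Hba-a2, which are not independent. AGATAA alone was in 10.3% of those windows, TGATAA in 8.16%, CCACCC in 27.7%, CCAAT in 34.5% and ATATAA in 9.51%. These matches describe letters in the window and were not tested as binding sites.

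The transcripts of the copies were close enough that reads cannot be assigned with certainty. The Hba-a1 and Hba-a2 transcripts of the GENCODE annotation matched at 537 of 538 aligned bases (99.8%) and those of Hbb-bs and Hbb-bt at 575 of 618 (93.0%), while Hba-a1 and Hbb-bs matched at 257 of 437 (58.8%). The copies were therefore summed to 1 alpha and 1 beta value per library. All 5 members passed the filter on low values, which asked for at least 1 FPKM in at least 6 libraries.

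Both hemoglobin sums and Alas2 were several times lower under Gly than under saline in both genotypes. The 4 hemoglobin genes together ranged 61.9-fold over the 24 libraries, between 66.1 and 4087 FPKM, and made up 0.0140% to 0.825% of all FPKM in a library. Their mean share was 0.0560% in knockout Gly and 0.302% in knockout saline libraries, and 0.0426% in wild-type Gly and 0.305% in wild-type saline libraries. These levels chose the members, so the comparison of Gly with saline is a description with no test.

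The alpha chain sum had a lowest, median and highest value of 45.2, 69.6 and 335 FPKM in wild-type Gly kidneys, against 223, 973 and 1399 FPKM in wild-type saline kidneys. The groups overlapped through library 5 of wild-type Gly, the highest of its group, which lay above libraries 2 and 6 of wild-type saline. The other 5 Gly libraries were below all saline libraries. In the knockout, the alpha sum was 35.3, 87.9 and 374 FPKM under Gly, against 370, 569 and 2249 FPKM under saline. Libraries 1 and 4 were the high ones of knockout Gly, and library 1 came just above the lowest saline library. Library 2 stood far above the other knockout saline libraries, the next of which had 649 FPKM.

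The beta chain sum followed the same libraries. It was 32.9, 57.1 and 260 FPKM in wild-type Gly kidneys (lowest, median and highest), against 176, 786 and 1210 FPKM in wild-type saline kidneys. It was 30.7, 65.5 and 278 FPKM in knockout Gly kidneys, against 306, 478 and 1838 FPKM in knockout saline kidneys. Here the knockout groups did not overlap, while in wild type library 5 of Gly again lay above saline libraries 2 and 6.

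Alas2 was far less abundant per length than the globins and was split in the same way. Its lowest, median and highest values were 0.336, 0.484 and 2.16 FPKM in wild-type Gly kidneys, against 1.51, 7.63 and 11.4 FPKM in wild-type saline kidneys. In the knockout they were 0.242, 0.710 and 3.14 FPKM under Gly, against 2.45, 4.29 and 19.4 FPKM under saline. In each genotype 5 of 6 Gly libraries were below all saline libraries. Library 5 of wild-type Gly, library 4 of knockout Gly and library 2 of knockout saline held the highest values of their groups.

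**Figure D1:**
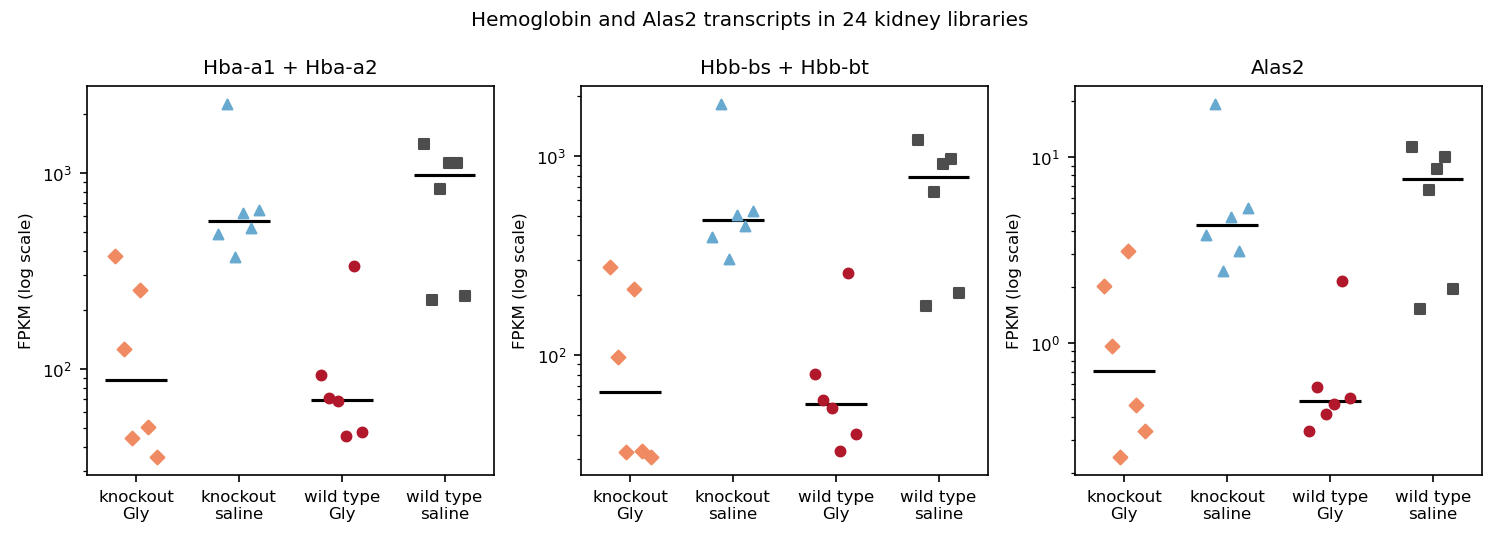
FPKM on a log axis of the alpha sum, the beta sum and Alas2 in the 24 libraries, with 1 point per library, a black line at the group median and 6 libraries per group. Most Gly points lie below the saline points of their genotype, with 1 high wild-type Gly library (335 FPKM for alpha) and 1 high knockout saline library (2249 FPKM for alpha).

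The log2 differences were correspondingly large, with wide errors. On the log2(FPKM + 1) scale, Gly minus saline in wild type was -2.96 ± 0.61 (SE, n = 6 each) for alpha, -2.99 ± 0.61 for beta and -1.97 ± 0.42 for Alas2. In the knockout it was -2.73 for alpha, -2.82 for beta and -1.63 for Alas2, with the same errors. The scale understates the change of Alas2, whose values are near the added 1. As levels, the alpha sum averaged 110 ± 112 FPKM in wild-type Gly and 821 ± 493 FPKM in wild-type saline (SD, n = 6 each), a 7.46-fold ratio of saline over Gly. Alas2 averaged 0.743 ± 0.700 FPKM in wild-type Gly and 6.69 ± 4.15 FPKM in wild-type saline (SD, n = 6 each). The ratio of means was 7.81 for beta, and the ratio of medians, saline over Gly, was 14.0 for alpha, 13.8 for beta and 15.8 for Alas2. In the knockout the ratio of means was 5.54 for alpha, 5.84 for beta and 5.44 for Alas2. In the fit of all features, 63.5% of 13018 features were called in wild type (13.3% lower) and 29.4% in the knockout (5.7% lower), and nothing about the members is read from these shares, since they were chosen on the same contrasts.

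A shift of composition came with Gly and is part of what FPKM measure. Mitochondrially encoded transcripts made up 23.9 ± 1.10% of FPKM in knockout Gly and 30.6 ± 1.46% in knockout saline libraries, and 19.5 ± 3.44% in wild-type Gly and 29.6 ± 2.84% in wild-type saline libraries (SD, n = 6 each). After rescaling each library without mitochondrial and hemoglobin rows, the alpha difference was -2.79 in the knockout and -3.07 in wild type, and the beta difference -2.88 and -3.11. The part of this shift in the hemoglobin values was otherwise not tested. Without the 5 knockout saline libraries with low Y-linked transcripts, only library 4 was left in that group, and the knockout differences were -2.63 for alpha, -2.71 for beta and -1.54 for Alas2. Library 4 had 620 FPKM of alpha, 506 FPKM of beta and 4.75 FPKM of Alas2, within the range of the other 5. Knockout Gly can also be set against wild-type saline, which gave -2.70 for alpha, -2.81 for beta and -1.71 for Alas2. That comparison shares its libraries with the others, and 45.6% of all features were called in it (38.9% higher and 6.71% lower).

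Within Gly and within saline, genotype made no difference that these libraries could resolve. Under Gly, knockout minus wild type was 0.25 ± 0.61 for alpha (95% interval -1.01 to 1.52, limma adjusted p = 0.787), 0.19 ± 0.61 for beta (-1.09 to 1.46, adjusted p = 0.848) and 0.25 ± 0.42 for Alas2 (-0.63 to 1.13, adjusted p = 0.689). Under saline the differences were 0.02 for alpha (-1.24 to 1.29, limma adjusted p = 0.987), 0.01 for beta (-1.27 to 1.29, adjusted p = 0.995) and -0.09 for Alas2 (-0.97 to 0.79, adjusted p = 0.923). The response to Gly differed between knockout and wild type by 0.23 ± 0.86 for alpha (-1.56 to 2.02, limma adjusted p = 0.874), 0.18 ± 0.86 for beta (-1.63 to 1.98, adjusted p = 0.905) and 0.34 ± 0.60 for Alas2 (-0.90 to 1.58, adjusted p = 0.715). None of the 9 tests was called, and none had an unadjusted p under 0.05. The interaction compares the Gly differences of both genotypes, and the members were chosen for being lower in both. That choice favours a small interaction, so its tests do not decide whether the response depends on genotype. With library 4 as the only knockout saline library, the saline differences were -0.072 for alpha, -0.10 for beta and -0.17 for Alas2, and the response differed by 0.33, 0.29 and 0.43 (limma, adjusted p of 0.885 or more in all 6). Among all 13018 features, 29.8% were called between genotypes under Gly, 10.6% under saline (6.92% higher and 3.67% lower) and 26.6% in the interaction (6.28% higher and 20.3% lower). The intervals leave room for changes of more than 1 log2 unit in either direction for the globin sums, so an effect of the knockout below that size was not detectable here.

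By group medians the order was the same for all 3 quantities, with wild-type saline highest, then knockout saline, knockout Gly and wild-type Gly. The neighbours wild-type saline and knockout saline did not differ beyond their spread, nor did knockout Gly and wild-type Gly, by the tests above.

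The chains kept close proportions while their level moved. The beta sum was 0.810 ± 0.0534 of the alpha sum (SD over 24 libraries), with extremes of 0.658 and 0.871. The group means of that ratio were 0.774 in knockout Gly and 0.825 in knockout saline, and 0.810 in wild-type Gly and 0.833 in wild-type saline. Alas2 amounted to 4.32 ± 1.04 FPKM per 1000 FPKM of hemoglobin, between 1.93 and 6.69 over the 24 libraries. Its group means were 4.63 in knockout Gly and 4.12 in knockout saline, and 4.17 in wild-type Gly and 4.34 in wild-type saline. The spread was wider under Gly, where Alas2 was under 1 FPKM in most libraries.

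Within the pairs of copies the split is uncertain, for the reason given above. Hbb-bs was 2.57 ± 0.270 times Hbb-bt over the 24 libraries. That ratio averaged 2.72 in knockout Gly and 2.46 in knockout saline, and 2.74 in wild-type Gly and 2.35 in wild-type saline. Hba-a1 was 1.14 ± 0.265 times Hba-a2, with 1 library, wild-type Gly 6, at 2.35 and the other libraries at 1.31 or less. Taken singly, the copies differed between Gly and saline in wild type by -2.85 (Hba-a1), -3.06 (Hba-a2), -2.93 (Hbb-bs) and -3.09 (Hbb-bt) log2 units.

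**Figure D2:**
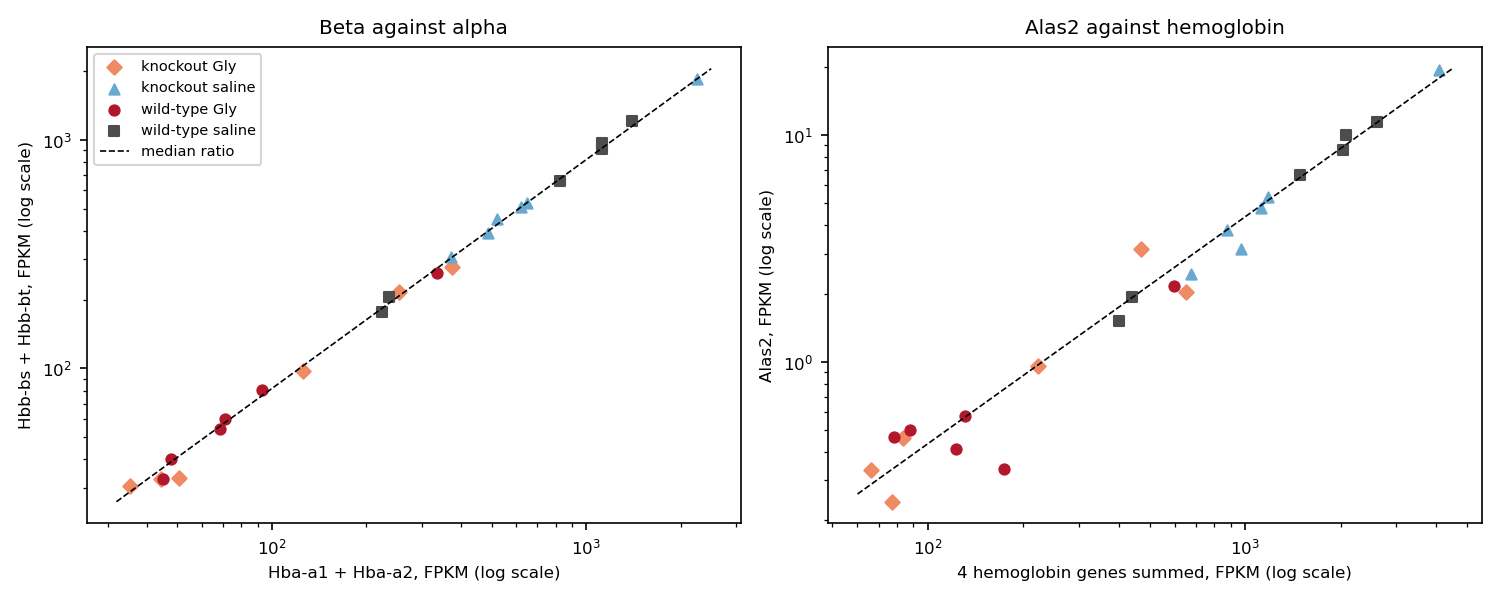
Both panels have log axes in FPKM and 1 point per library, coloured by group: the beta sum against the alpha sum, and Alas2 against the 4 hemoglobin genes summed, with a dashed line at the median ratio over the 24 libraries. Points of all 4 groups lie along the same line, closely for beta against alpha (0.810 ± 0.0534) and more loosely for Alas2 at its low end.

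The libraries of a single group also varied together. Between the alpha and beta sums, Pearson's r of log2(FPKM + 1) over the 6 libraries of a group was 0.995 in knockout Gly and 0.999 in knockout saline, and 0.996 in wild-type Gly and 0.999 in wild-type saline. The exact two-sided permutation p was 0.00139 in each, the smallest that 6 pairs can give, or 0.00667 after adjustment over 24 correlations (6 pairs of measures in 4 groups), and Spearman's rho was 1 in each (exact permutation, adjusted p = 0.0133). Without the 2 libraries farthest from the median, r stayed at 0.975 or more.

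Alas2 followed the beta sum in 3 of the 4 groups. In wild-type saline r was 0.999 and rho 1 (exact permutation, adjusted p = 0.00667 for r and 0.0133 for rho), and in knockout Gly r was 0.946 and rho 0.886 (adjusted p = 0.0333 for r and 0.080 for rho). In knockout saline r was 0.987 and rho 0.943 (exact permutation, adjusted p = 0.0125 for r and 0.050 for rho), and r fell to 0.720 without the 2 farthest libraries. In wild-type Gly r was 0.859 and rho 0.257 (exact permutation, adjusted p = 0.221 for r and 0.790 for rho). There r was -0.580 without libraries far from the median, so the value rests on the high library 5.

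Other genes of red cells were then examined, from 3 lists with 51 genes (membrane and skeleton, cytosol and late transcripts, other globins). Of these, 48 were in the table and 25 passed the filter on low values, so the lists were tested only in part. In wild type, 8 of the 25 were lower and 4 were higher under Gly (limma, adjusted p under 0.05), beside 13.3% of all features lower and 50.2% higher. The median log2 difference of the 25 was 0.10, against 0.26 over all features. In the knockout, 4 were lower and 1 was higher (limma, same threshold), beside 5.7% and 23.7% of all features, with a median of -0.02 against 0.12 over all features. The 25 differences lay between -1.03 and 0.77 in wild type, so each was smaller than those of both hemoglobin sums. Against saline library 4 alone, calls in the knockout can be lost because only 1 saline library is left. Whether the calls depend on the 5 saline libraries named above cannot be decided that way. Some differences shrank in that fit, such as that of Slc4a1, and others did not, such as that of Lmo2, as given below. The 33 knockout calls over all gene lists included the 4 Y-linked genes. Low values of these genes set the 5 libraries apart, so the loss of their calls was fixed in advance. Among the other lists, the calls kept were of macrophage genes and Cygb. Library 4 is then assumed to vary like the libraries of the other groups.

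Slc4a1, the band 3 anion exchanger, is the main protein of the red cell membrane and is also made by acid-secreting intercalated cells of the kidney. It was lowest at 2.59, median 4.55 and highest 5.33 FPKM in wild-type Gly kidneys, against 8.08, 9.62 and 10.2 FPKM in wild-type saline kidneys. These groups did not overlap, and the difference was -1.03 ± 0.18 (limma, adjusted p = 2.30e-05, n = 6 each). Knockout kidneys had 3.96, 6.85 and 8.44 FPKM under Gly, against 7.85, 11.8 and 20.5 FPKM under saline, a difference of -0.80 ± 0.18 (limma, adjusted p = 0.00154). Knockout Gly libraries were otherwise all below saline apart from library 4, which exceeded the saline library of that number. Set against saline library 4 alone, the knockout difference was -0.28 (limma, adjusted p = 0.587).

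The remaining membrane genes moved little or in other directions. Epb41 (-0.47), the protein 4.1 of the membrane skeleton, and Dmtn (-0.37), the actin bundler dematin, fell in wild type (limma, adjusted p = 0.00952 and 0.00226). Stom, stomatin, rose there by 0.72 (limma, adjusted p = 0.000121). In the knockout, Gypc, glycophorin C, fell by 0.43 (limma, adjusted p = 0.0267) and Aqp1, a water channel that is also abundant in the proximal tubule, rose by 0.46 (adjusted p = 0.0288), a call that none of 3 other scalings (median-ratio, quantile, and rescaling without mitochondrial and hemoglobin rows) kept. The Gypc call was lost without any one of Gly libraries 1, 4 or 5 or saline libraries 5 or 6 (adjusted p up to 0.0809). Gypc did not pass the filter without the 5 saline libraries low in Y-linked transcripts, and the Aqp1 difference was then 0.30 (limma, adjusted p = 0.571). With 1 library left out at a time, the Aqp1 call was lost without any one of Gly libraries 3, 4 or 5 or saline libraries 2 or 6 (limma, adjusted p up to 0.0804). Ank1, ankyrin of the membrane skeleton, had means of at most 0.0681 FPKM in every group and was not tested.

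Among the late transcripts, Fech, the ferrochelatase that closes heme synthesis in all tissues, showed the clearest fall. It was lowest at 28.8, median 37.3 and highest 39.0 FPKM in wild-type Gly kidneys, against 50.0, 55.3 and 58.9 FPKM in wild-type saline kidneys, with no overlap (difference -0.59 ± 0.07, limma adjusted p = 2.17e-07). Knockout kidneys had 43.5, 45.9 and 51.6 FPKM under Gly and 44.3, 48.0 and 55.6 FPKM under saline (difference -0.06, limma adjusted p = 0.585). The response differed between knockout and wild type by 0.53 (limma, adjusted p = 0.000776), a call not kept with saline library 4 as the only knockout saline library (0.34, adjusted p = 0.448). Fbxo7, an F-box protein, fell in wild type by 0.42 (limma, adjusted p = 0.00111), Slc25a37, the mitochondrial iron importer mitoferrin 1, by 0.30 (adjusted p = 0.0162), and Bpgm, which makes 2,3-bisphosphoglycerate, by 0.26 (adjusted p = 0.0184). Fam210b, a mitochondrial protein, fell by 0.28 (limma, adjusted p = 0.0159). Ube2l6 (0.77), Prdx2 (0.48) and Car2 (0.41) rose in wild type (limma, adjusted p = 0.000809, 0.000499 and 0.000530), and the last of these enzymes, carbonic anhydrase 2, is abundant in kidney tubules too. With Stom these were the 4 red-cell genes called higher in wild type, a count that became 2 under median-ratio scaling. In the knockout, Pklr, the pyruvate kinase of red cells and liver, fell by 0.50 (limma, adjusted p = 0.0119) and Tent5c, a poly(A) polymerase, by 0.34 (adjusted p = 0.0186). Without saline library 2, Tent5c was not called (limma, adjusted p = 0.0556). Neither call was kept against saline library 4 alone, where Pklr differed by 0.052 and Tent5c by -0.22 (limma, adjusted p = 0.913 and 0.542).

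**Figure D3:**
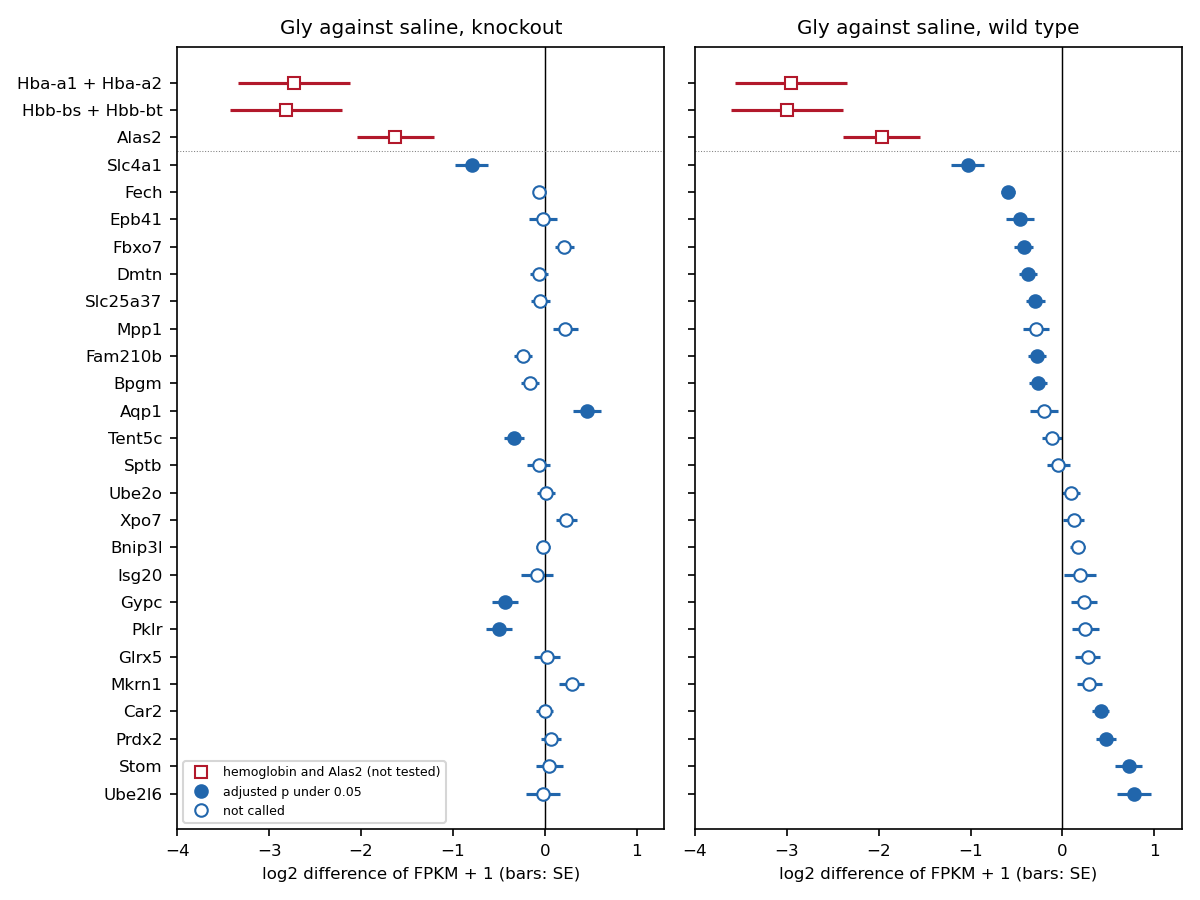
Log2 differences of FPKM + 1, Gly minus saline, in knockout (left) and wild type (right), for the alpha sum, the beta sum, Alas2 and 24 of the 25 tested genes of the red-cell lists, with bars of 1 SE and 6 libraries per group. The hemoglobin and Alas2 differences (open squares, not tested) lie between -2.99 and -1.63, while the other genes lie between -1.03 and 0.77, with filled points for an adjusted p under 0.05.

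Several red cell genes were at or near 0 in most libraries. Trim10, an erythroid RING-finger protein, was at 0 in 4 of 6 libraries of each Gly group, with highest values of 0.0482 FPKM in knockout Gly and 0.0443 FPKM in wild-type Gly. Its highest value was 0.584 FPKM in knockout saline and 0.347 FPKM in wild-type saline libraries. With no filter on low values, Trim10 differed by -0.21 in wild type (limma, adjusted p = 0.0409) and by -0.15 in the knockout (adjusted p = 0.230). Zero values in an FPKM table can be failed estimates, so no fold is given.

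The highest Trim10 value, 0.584 FPKM, was in knockout saline library 2, the library with the most hemoglobin. Epb42, protein 4.2 of the membrane, went the other way with no filter, averaging 0.813 FPKM in wild-type Gly and 0.241 FPKM in wild-type saline libraries (limma difference 0.54, adjusted p = 3.74e-06). Rhag, Car1 and Hemgn did not exceed 0.0542 FPKM in any library. The embryonic globins Hba-x, Hbb-y, Hbb-bh1 and Hbb-bh2 were listed at 0 in all 24 libraries. The theta globins Hbq1a and Hbq1b were listed at 0 in every Gly library of both genotypes and reached at most 0.293 FPKM in saline libraries. Ahsp, Hbb-b1 and Hbb-b2 had no row under these symbols in the deposited expression table, so they could not be analysed.

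**Figure D4:**
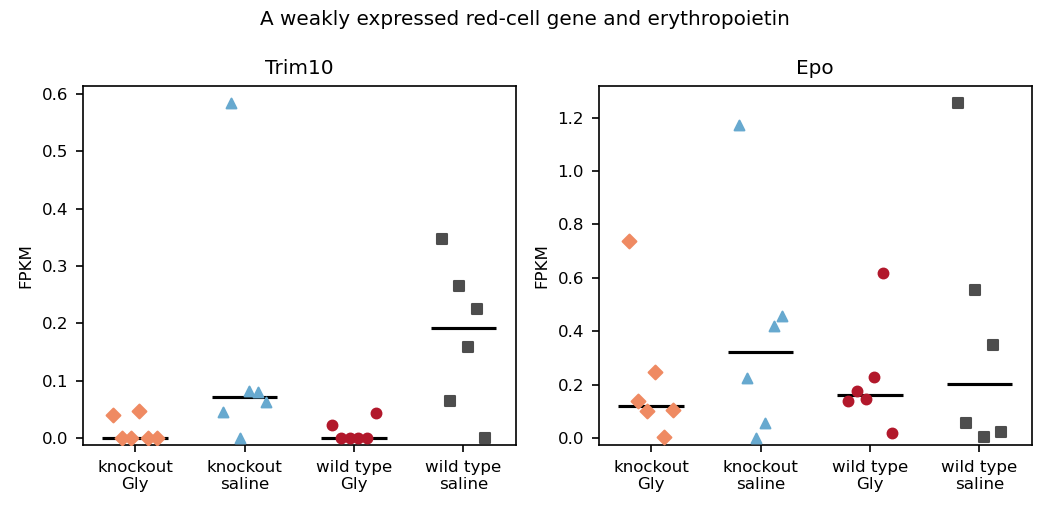
FPKM on a linear axis of Trim10 and Epo in the 24 libraries, with 1 point per library, a black line at the group median and 6 libraries per group. Trim10 stays below 0.05 FPKM in all Gly libraries and reaches 0.584 FPKM under saline, while Epo overlaps between Gly and saline.

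Bpgm followed the beta sum in knockout saline, with r of 0.997 and rho of 0.943 (exact permutation, adjusted p = 0.00952 for r and 0.050 for rho), and r was 0.909 without the 2 farthest libraries. In the other 3 groups its r lay between 0.301 and 0.569 with adjusted p of 0.362 or more by the exact permutation test, and rho between -0.0286 and 0.543 (adjusted p of 0.510 or more). Slc4a1 gave r of 0.263 in knockout Gly and 0.716 in knockout saline, and -0.687 in wild-type Gly and -0.268 in wild-type saline, with exact permutation adjusted p of 0.205 or more, and rho between -0.771 and 0.429 (adjusted p of 0.224 or more). Fech gave r between -0.256 and 0.249 over the 4 groups, with exact permutation adjusted p of 0.660 or more, and rho between -0.543 and 0.200 (adjusted p of 0.510 or more).

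**Figure D5:**
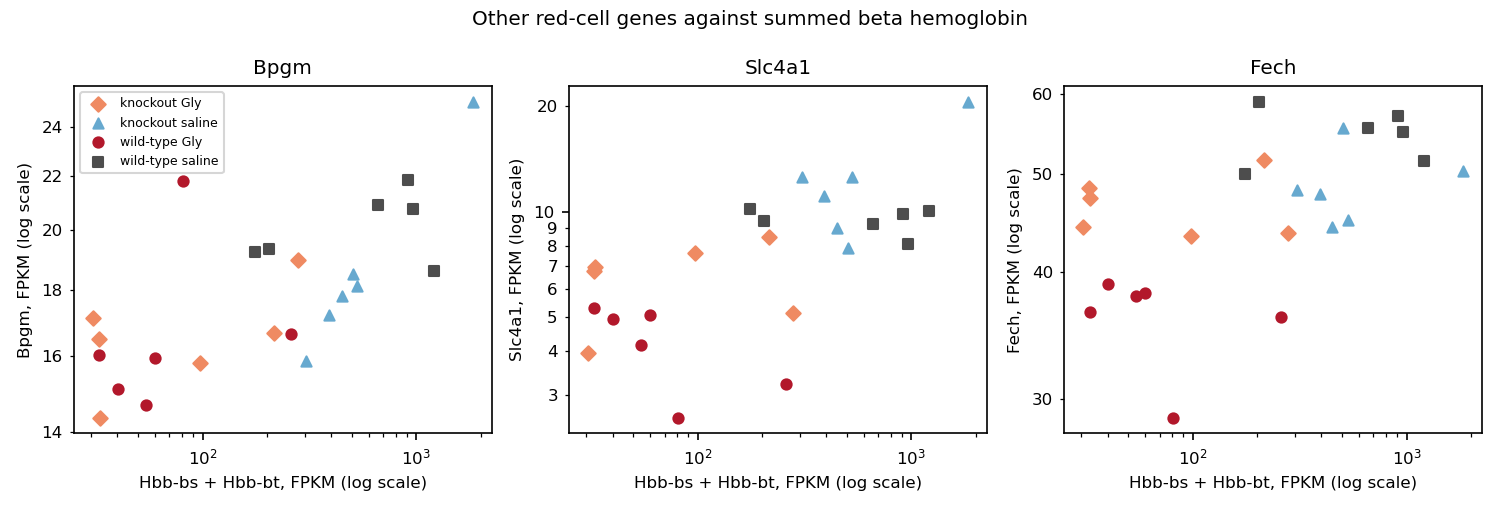
FPKM on log axes of Bpgm, Slc4a1 and Fech against the beta sum, with 1 point per library, coloured by group. Bpgm rises with the beta sum within knockout saline (r = 0.997), while Slc4a1 and Fech separate the wild-type groups without rising inside them.

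The tested features most like the beta sum over the deviations of the 24 libraries from their group means were ranked by Pearson's r. This is a description, since libraries share their scaling. Members, other globins, predicted genes, pseudogenes and gene models added by the authors were left out of the ranks. Alas2 itself had r = 0.913. Among the 10 highest others were mt-Nd3 (0.687), S100a9 (0.674), Fchsd1 (0.647), mt-Co2 (0.643), Irak1bp1 (0.640), Jchain (0.616), Palm3 (0.611), mt-Atp6 (0.611) and Tfrc (0.604). Bpgm came at rank 30, Slc4a1 at rank 1519 and Fech at rank 2664. With the group differences left in, the order was another: mt-Atp6 (0.855), mt-Nd6 (0.843), mt-Co2 (0.843), mt-Co3 (0.836), mt-Nd1 (0.822), Pvalb (0.817), mt-Nd2 (0.816), Vpreb1 (0.792), Vstm2a (0.764) and Acadm (0.755).

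Heme synthesis was measured with all 8 of its listed enzymes. In wild type 2 were higher and 1 was lower under Gly, beside 50.2% and 13.3% of all features. In the knockout none was higher and 1 was lower, beside 23.7% and 5.7% (limma, adjusted p under 0.05). Alas1, the housekeeping counterpart of Alas2, had 48.2, 62.9 and 64.7 FPKM in wild-type Gly kidneys (lowest, median and highest), against 29.3, 38.0 and 49.6 FPKM in wild-type saline kidneys. It thus rose by 0.65 where Alas2 was lower (limma, adjusted p = 0.00117), a call not kept under median-ratio scaling (0.34, adjusted p = 0.0976). In the knockout it differed by 0.42 (limma, adjusted p = 0.0564). Fech was the one that fell in wild type, and Cpox differed by -0.34 (limma, adjusted p = 0.0609). Uros fell in the knockout by 0.29 (limma, adjusted p = 0.0499), a call lost in 18 of the 24 fits that left out 1 library and against saline library 4 alone (-0.20, adjusted p = 0.631).

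Of 10 genes of heme transport and assembly, 4 rose and 3 fell in wild type, beside 50.2% and 13.3% of all features. In the knockout 1 rose and 1 fell, beside 23.7% and 5.7%. Clpx, the mitochondrial chaperone that activates ALAS enzymes, fell by 0.92 in wild type (limma, adjusted p = 2.60e-10) and by 0.25 in the knockout (adjusted p = 0.0155). Tspo, an outer membrane protein of mitochondria, rose in wild type by 0.65 (limma, adjusted p = 5.61e-05), and Abcb6, a porphyrin transporter, fell by 0.33 (adjusted p = 0.00162). Slc25a38, the glycine carrier used for heme synthesis, rose by 0.36 in wild type (limma, adjusted p = 7.17e-05) and by 0.24 in the knockout (adjusted p = 0.00945). Against saline library 4 alone the knockout differences were -0.24 for Clpx and 0.19 for Slc25a38 (limma, adjusted p = 0.363 and 0.436).

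Regulators of red cell formation were mostly low in the kidney. Of 12 transcription factors and receptors 7 were tested, and 3 rose and 1 fell in wild type, beside 50.2% and 13.3% of all features. In the knockout 2 rose and none fell, beside 23.7% and 5.7%. Gata1 and Gfi1b, which nucleated red cell precursors need, were at or below 0.0261 FPKM in every library, and Nfe2 at or below 0.291 FPKM. Klf1, an erythroid activator of the beta globin gene, had 0.535, 0.743 and 1.57 FPKM in wild-type Gly kidneys, against 1.10, 1.56 and 2.04 FPKM in wild-type saline kidneys. It fell by 0.50 (limma, adjusted p = 0.00296), with library 1 of Gly inside the saline range, and it differed by -0.12 in the knockout (adjusted p = 0.539). Lmo2, a factor also used by endothelium, rose by 1.10 in wild type (limma, adjusted p = 2.98e-06) and by 0.49 in the knockout (adjusted p = 0.0277). The knockout call was lost without any one of Gly libraries 2, 3 or 6 or saline libraries 3 or 4 (adjusted p up to 0.0790). Ldb1 rose in wild type by 0.32 (limma, adjusted p = 0.0156). Tfrc, the transferrin receptor that brings iron into cells, rose by 0.73 in the knockout (limma, adjusted p = 0.00408) and by 0.52 in wild type (adjusted p = 0.0156), the last not called under any of the 3 other scalings, nor without wild-type Gly library 5 (adjusted p = 0.0511). With knockout saline library 4 alone, the knockout differences were 0.84 for Lmo2 and 0.74 for Tfrc, neither of them called (limma, adjusted p = 0.0754 and 0.230).

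Erythropoietin itself lay below the filter on low values, and no difference between Gly and saline was called for it. Epo was lowest at 0.0202, median 0.163 and highest 0.617 FPKM in wild-type Gly kidneys, against 0.00433, 0.204 and 1.26 FPKM in wild-type saline kidneys. Knockout kidneys had 0.00335, 0.123 and 0.739 FPKM under Gly, against 0.00277, 0.324 and 1.17 FPKM under saline. Epo was highest in the library with the most hemoglobin in wild-type Gly (library 5), wild-type saline (library 1) and knockout Gly (library 1). In knockout saline it was highest in library 1, while library 2 had the most hemoglobin. This was not tested. Between Gly and saline the Epo values overlapped widely, and with no filter the differences were -0.12 in wild type and -0.16 in the knockout (limma, adjusted p = 0.684 and 0.671). Epor, its receptor, differed by -0.37 in wild type and by -0.40 in the knockout (limma, adjusted p = 0.126 and 0.154).

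Genes that bind and break down free hemoglobin and heme were called in both directions. Of 11 tested, 4 rose and 3 fell in wild type, beside 50.2% and 13.3% of all features. In the knockout 2 rose and 1 fell, beside 23.7% and 5.7%. Hmox1, the inducible heme oxygenase, had 29.7, 32.2 and 65.3 FPKM in wild-type Gly kidneys, against 18.0, 21.4 and 31.2 FPKM in wild-type saline kidneys, a rise of 0.69 (limma, adjusted p = 0.0126). In the knockout it had 14.2, 21.7 and 45.9 FPKM under Gly, against 7.59, 8.93 and 17.4 FPKM under saline, a rise of 1.11 (limma, adjusted p = 0.000924). Against knockout saline library 4 alone the knockout difference was 0.39 (limma, adjusted p = 0.600), and in wild type the call was not kept under median-ratio scaling (0.39, adjusted p = 0.219).

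Lrp1, the receptor of heme bound to hemopexin, rose by 1.41 in wild type (limma, adjusted p = 1.21e-06) and by 0.95 in the knockout (adjusted p = 0.000723), and Blvra, biliverdin reductase A, rose in wild type by 0.50 (adjusted p = 0.000955). The knockout difference of Lrp1 was 1.01 against saline library 4 alone (limma, adjusted p = 0.133). Cubn and Lrp2, cubilin and megalin, which take up filtered hemoglobin in the proximal tubule, fell in wild type by 0.94 (limma, adjusted p = 1.79e-06) and 0.90 (adjusted p = 1.04e-05). Hp, haptoglobin, and Hpx, hemopexin, were called in neither genotype (limma, adjusted p of 0.134 to 0.566). Cd163, the hemoglobin scavenger receptor of macrophages, lay below the filter. With none applied, it rose by 0.42 in the knockout (limma, adjusted p = 0.00596) and differed by 0.25 in wild type (adjusted p = 0.0633).

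A globin of other cells behaved in the opposite way. Cygb, cytoglobin of fibroblast-like cells, had 6.45, 12.3 and 16.8 FPKM in wild-type Gly kidneys, against 1.16, 1.36 and 1.63 FPKM in wild-type saline kidneys, with no overlap. It rose by 2.41 in wild type (limma, adjusted p = 5.84e-12) and by 1.05 in the knockout (adjusted p = 1.95e-05), and the response was smaller in the knockout by 1.36 log2 units (interaction -1.36, adjusted p = 0.000174). With library 4 as the only knockout saline library, the rise in the knockout was 1.15 (limma, adjusted p = 0.0406) and the interaction -1.25, not called (adjusted p = 0.180). Mb, myoglobin, did not exceed 0.337 FPKM in any library.

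Markers of other cells that circulate with red cells were mostly low and did not move in 1 direction. Among all tested features, 50.2% were higher and 13.3% lower in wild type, and 23.7% and 5.7% in the knockout, beside which the counts here stand. Of 12 platelet genes, 2 were tested. Pf4, platelet factor 4, which macrophages also make, rose by 2.20 in wild type (limma, adjusted p = 7.80e-10) and Itga2b fell by 0.40 (adjusted p = 3.23e-05). With no filter, 1 of the 12 was higher and 3 were lower in wild type, Itga2b, Tubb1 (-0.19) and Gp1ba (-0.16) (limma, adjusted p = 0.00903 for Tubb1 and 0.0303 for Gp1ba), and in the knockout 1 was higher and 0 lower. The shares of all features higher and lower with no filter are not given here, so these counts are not read further. The summed platelet list ranged between 6.19 and 11.1 FPKM in wild-type Gly libraries, against 1.92 to 4.86 FPKM in wild-type saline libraries. Pf4 alone made up 3.89 to 9.30 FPKM of this under Gly, against 0.105 to 0.851 FPKM under saline. It thus passed the filter mainly through its Gly values, and its place among the tested genes is tied to its rise. The other 11 genes summed to 1.32 to 2.30 FPKM in wild-type Gly, against 1.72 to 4.22 FPKM in wild-type saline libraries, with medians of 1.73 and 2.61 FPKM. In the knockout these 11 summed to 1.54 to 2.12 FPKM under Gly, against 1.86 to 3.58 FPKM under saline, so their sums were lower at the median under Gly in both genotypes, with overlap. Ppbp averaged 0.401 FPKM in wild-type Gly and 0.572 FPKM in wild-type saline libraries. The neutrophil genes S100a8 and S100a9, the 2 of that list tested, rose in both genotypes (S100a9 in wild type was lost without any one of Gly libraries 1, 2 or 5 or saline libraries 5 or 6, adjusted p up to 0.0692). Neither was called in the knockout against saline library 4 alone (1.27 for S100a8 and 1.61 for S100a9, limma adjusted p = 0.184 and 0.230). The list summed to 2.72 to 13.3 FPKM in wild-type Gly, against 0.530 to 3.43 FPKM in wild-type saline libraries. The B and T cell list summed to 2.02 to 5.73 FPKM in wild-type Gly, against 1.03 to 1.41 FPKM in wild-type saline libraries, with none of its genes past the filter.

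Cells that stay in the tissue shifted too, and their part in the hemoglobin values was not tested. All 10 macrophage genes were higher under Gly in wild type and 9 of 10 in the knockout, and the list summed to 286 to 813 FPKM in wild-type Gly, against 37.8 to 66.9 FPKM in wild-type saline libraries. In the knockout it summed to 149 to 440 FPKM under Gly, against 41.7 to 81.8 FPKM under saline. Of 12 tested endothelial genes, 3 rose in wild type (Eng, Plvap and Emcn, the last at adjusted p = 0.0495 by limma and lost in 15 of 24 fits that left out 1 library) and 1 fell in the knockout (Emcn, which differed by 0.076 against saline library 4 alone, adjusted p = 0.843). The list summed to 155 to 232 FPKM in knockout Gly, against 141 to 244 FPKM in knockout saline libraries, and to 124 to 191 FPKM in wild-type Gly, against 112 to 134 FPKM in wild-type saline libraries. Of 7 tubule and podocyte genes, 4 fell in wild type and 2 in the knockout. Over all features, 50.2% rose and 13.3% fell in wild type, and 23.7% rose and 5.7% fell in the knockout.

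Between genotypes under Gly, 6 of the 25 tested red-cell genes were higher in the knockout and 3 were lower, beside 8.37% of all features higher and 21.5% lower. Slc4a1 was higher by 0.52 (limma, adjusted p = 0.0315), Fech by 0.36 (adjusted p = 0.000813) and Dmtn by 0.47 (adjusted p = 0.00110). Klf1, outside these lists, was higher by 0.41 (limma, adjusted p = 0.0257). Under saline 4 of the 25 were higher in the knockout and 2 were lower, beside 6.92% and 3.67% of all features. In the interaction 3 were higher and 5 were lower, beside 6.28% and 20.3%. With library 4 as the only knockout saline library, limma called 0 of 23 under saline (0 at an unadjusted p under 0.05) and 0 of 23 in the interaction (2 at an unadjusted p under 0.05). Set against wild-type saline, 3 of the 25 were higher and 5 were lower in knockout Gly, beside 38.9% and 6.71% of all features. For the hemoglobin sums and Alas2 the difference under Gly was within the spread, as given above.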

How the data were processed

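Kidney RNA of 24 samples was extracted with Trizol and made into TruSeq libraries from 1 µg of total RNA, per the labels' protocols. The values are FPKM per gene, which the authors deposited in 1 table for all 24 libraries. The submitters' processing notes name Bowtie 0.12.2 and the builds mm8 and mm9, with no role given. Strand and annotation are not stated in the labels used here. Near-identical hemoglobin copies can share reads, so Hba-a1 with Hba-a2, and Hbb-bs with Hbb-bt, were summed. All 5 members matched the symbol table. The steps of low FPKM values gave no whole reads (at most 2.74% of low features shared 1 ratio), so depth and counting intervals are not given, and 0 columns belonged to other samples.

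The 13018 features that reached 1 FPKM in 6 or more libraries were fitted as log2(FPKM + 1) with limma 3.58.1 in R 4.3.3, with all 24 libraries and 20 residual degrees of freedom, a mean-dependent prior, and Benjamini-Hochberg adjustment over all features at a threshold of 0.05. Correlations within groups used exact permutation tests (SciPy 1.17.1). Promoters were aligned with Biopython 1.88, and figures used matplotlib 3.10.9 in Python 3.11.15. The fit was tested on simulated data. The members and lists were chosen with earlier results of these data known. Named genes were the 5 members, a fixed set of red-cell, heme and Epo genes, the 4 genes of each list with the smallest p in wild type, and the 10 most alike by each measure. Other genes named in the text were chosen after their values were seen. Some genes counted in the lists, and 1 of the correlated pairs, are not reported here by name or value. Alternatives were a pseudocount of 0.1, no filter, 3 other scalings, array weights, a replicate block, separate copies, fewer groups, and leaving out libraries. The comparison of knockout Gly with wild-type saline in place of knockout saline, and the platelet sum without Pf4, were chosen after seeing the data.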

Additional observations from a re-analysis of the deposited data

Results flagged for a closer look

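In 15 of 52 groups of 6 libraries (13 quantities in 4 groups), 1 library stood apart from the others by Dixon's ratio of gap to range. Chance does this in about 1 group in 20 for normally distributed values. FPKM were used here without logs, so that rate need not hold for skewed values. Library 5 of wild-type Gly stood high in the alpha sum (335 FPKM), the beta sum (260 FPKM), Alas2 (2.16 FPKM) and Hmox1 (65.3 FPKM). Library 2 of knockout saline stood high in the alpha sum (2249 FPKM), the beta sum (1838 FPKM), Alas2 (19.4 FPKM), Slc4a1 (20.5 FPKM) and Bpgm (25.1 FPKM). The 3 member values of each library are not independent, since they vary together. Library 1 of wild-type Gly stood high in Bpgm (21.8 FPKM) and Klf1 (1.57 FPKM) and low in Fech (28.8 FPKM), and ribosomal protein transcripts made up 9.29% of its FPKM. Single libraries also stood apart in Alas1 (48.2 FPKM, low, wild-type Gly 4), Hmox1 (31.2 FPKM, high, wild-type saline 3) and Hpx (25.2 FPKM, high, knockout Gly 1).

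The response to Gly differed between the genotypes for Fech, by 0.53 log2 units (knockout minus wild type, limma adjusted p = 0.000776), and for Cygb, by -1.36 (adjusted p = 0.000174). Without the 5 knockout saline libraries low in Y-linked transcripts, which leaves 1 library in that group, the differences were 0.34 for Fech and -1.25 for Cygb.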

How the results depend on the processing

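None of the 9 genotype tests of the members was called by limma under any alternative run or with any 1 library left out. Alas2 under Gly and its interaction kept their direction in all of these, and the other 7 changed direction in at least 1. Leaving out 1 library gave -0.13 to 0.65 for alpha, -0.18 to 0.57 for beta and 0.04 to 0.44 for Alas2 between genotypes under Gly. Under saline it gave -0.33 to 0.24, -0.34 to 0.24 and -0.44 to 0.10 for these, and in the interaction -0.15 to 0.63, -0.19 to 0.56 and 0.13 to 0.69. The saline difference turned to -0.068 for alpha and -0.082 for beta under median-ratio scaling, and to -0.072 and -0.10 without the 5 knockout saline libraries low in Y-linked transcripts. Array weights gave 0.081 for Alas2 under saline and -0.00077 for the beta interaction. The interaction tests carry the limit given above, from the choice of the members.

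The Gly differences of the members stayed negative throughout, at -3.50 to -2.85 in wild type and -3.11 to -2.63 in the knockout for alpha over the alternatives. The count of other red-cell genes higher in wild type, 4, became 7 with no filter, 7 with a pseudocount of 0.1 and no filter, 2 under median-ratio scaling, 7 without wild-type Gly libraries 1 and 5, and 8 with array weights (4 to 6 with 1 library left out). The 4 lower in the knockout became 7 under quantile normalization and 0 without the 5 libraries. The 1 higher in the knockout became 2 with a pseudocount of 0.1 and no filter, 0 under median-ratio, quantile and rescaled values, 0 without the 5 libraries, 2 without wild-type Gly libraries 1 and 5, 4 with array weights, 2 in only the groups compared, and 3 against wild-type saline (0 to 3 with 1 library left out). Without the 5 libraries, the knockout difference turned to 0.037 for Epor, 0.052 for Pklr, 0.076 for Emcn and 0.026 for Slc12a1. In wild type, median-ratio scaling gave -0.044 for Hmox2 and -0.041 for Emcn, and quantile normalization -0.041 for Emcn. With 1 library left out, Hpx in the knockout ranged from -0.025 to 0.83. The causes were not tested.

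Scaling moved the split of all calls: 79.1% of wild-type calls were higher as reported, 51.0% under median-ratio scaling (median shift -0.26), 47.2% under quantile normalization (-0.29) and 71.7% when rescaled (-0.10). For the knockout these were 80.6%, 49.9%, 47.2% and 71.0%, and between genotypes under Gly 28.1%, 46.6%, 47.6% and 38.4%. Without the 5 libraries, limma made 747 calls over all features in the knockout in place of 3832, 0 between genotypes under saline in place of 1379 (95 at an unadjusted p under 0.05), and 10 in the interaction in place of 3457. Those lower counts can come from the single library left in knockout saline, and the part of the 5 libraries in them was not tested. Of the reported list genes called under Gly, 3 of 51 in wild type and 8 of 33 in the knockout lost the call without some 1 library, and none reversed.

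Replicate numbers did not pair the samples: same-numbered libraries correlated at -0.37 to 0.31 over 36 pairs, and 4 correlated best with their own number. A replicate block gave 0.25 for alpha between genotypes under Gly (limma adjusted p = 0.777), changed no member call, and gave 8214 calls in wild type and 3696 in the knockout. Depth is unknown, so values near 0 carry no counting limit.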
